A study of Mus musculus with 9 samples.

Results

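The genes of fast-twitch skeletal muscle were followed in brown adipose tissue of mice, 10 of the 16937 genes with a row in any of the tables. They were chosen by name, as the fast isoforms of the contractile machinery, after earlier results of these data had shown muscle transcripts lower in cold-exposed GCN2 knockout than in cold-exposed wild-type tissue. They are the myosin heavy chains Myh1, Myh2 and Myh4, the myosin light chains Mylpf and Myl1, the troponin subunits Tnnc2, Tnni2 and Tnnt3, the Z-disc protein Actn3 and the calcium pump Atp2a1. In cold-exposed wild-type mice (WT Cold) 8 of them overlapped with wild-type mice at room temperature (WT RT), while the calcium pump was higher and the light chain Myl1 lower in every library, where 22.8% of all genes lay apart in each direction. Libraries A and B of WT Cold lay above all 3 WT RT libraries in 7 members, as in 30.8% of all genes, and library C did so in 1 of them. Library C was the lowest of its group in 9 members, so a count without it is raised by its removal. In the 3 libraries labelled GCN2 KO Cold all 10 lay below every WT RT library, as did 25.5% of all genes, with a median of 54.1, 39.1 and 10.8% of the WT RT mean in libraries A, B and C.

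The study compared brown adipose tissue RNA from 9 adult mice, 3 in each of 3 groups. WT RT mice were wild type and kept at 23 °C, and WT Cold mice were wild type and kept at 4 °C over 8 h. By the study's account, GCN2 KO Cold mice lacked the kinase GCN2 in the whole body (Gcn2-/-) and had the same cold exposure. All were on the C57Bl/6J background and were housed singly at 23 °C before the exposure. The study describes its RNA-seq groups as holding both male and female mice, and the labels do not tie a library to a sex. There was no GCN2 knockout group at 23 °C, and the knockout was not limited to brown adipose tissue, so muscle fibres in or beside the depot carried it too.

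A skeletal muscle fibre contracts when calcium released from its sarcoplasmic reticulum binds troponin C on the thin filament, which frees actin for the heads of myosin on the thick filament, and the fibre relaxes when SERCA pumps return the calcium. Vertebrates carry separate genes for the fast and the slow version of nearly every part of this machine, and fibres are typed by which set they use. Brown adipocytes share an embryonic origin with skeletal muscle, and the main brown depot of the mouse lies close to muscle.

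The genes of the 3 fast heavy chains stand in a row on chromosome 11, all on the plus strand, with the embryonic Myh3 before them and the perinatal Myh8 after them. In GRCm38 they occupy chr11:67171027-67197517 (Myh2), chr11:67200052-67224575 (Myh1) and chr11:67238029-67260446 (Myh4). To show how alike these neighbouring genes are, their promoters are given, as the bases before the RefSeq transcription start in GRCm38.p6. These are chr11:67199852-67200051 for Myh1, chr11:67170777-67171026 for Myh2 and chr11:67237562-67237811 for Myh4, and 50 further bases of the Myh1 window were left out because the GENCODE M21 annotation places an exon there. Capitals mark matches to an E-box (CANNTG), a MEF2 site or a TATA box (TATAAA).
Myh1: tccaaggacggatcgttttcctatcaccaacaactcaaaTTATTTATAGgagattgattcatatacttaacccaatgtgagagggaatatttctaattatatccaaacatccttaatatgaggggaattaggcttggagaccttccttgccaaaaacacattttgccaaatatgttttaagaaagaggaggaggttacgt
Myh2: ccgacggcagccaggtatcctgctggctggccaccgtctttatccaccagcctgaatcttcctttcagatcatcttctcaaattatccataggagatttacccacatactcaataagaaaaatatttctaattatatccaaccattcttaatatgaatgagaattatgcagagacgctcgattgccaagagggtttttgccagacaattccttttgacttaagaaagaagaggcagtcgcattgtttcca
Myh4: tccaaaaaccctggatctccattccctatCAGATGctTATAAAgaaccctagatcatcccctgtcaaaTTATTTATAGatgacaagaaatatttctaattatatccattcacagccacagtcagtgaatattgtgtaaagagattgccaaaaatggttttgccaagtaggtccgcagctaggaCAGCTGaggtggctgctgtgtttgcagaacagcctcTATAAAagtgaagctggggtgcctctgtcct

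The 3 promoters shared a run of 20 identical bases, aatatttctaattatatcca, which began 165 bases before the RefSeq start of Myh1, 130 before that of Myh2 and 163 before that of Myh4. No other gene of the RefSeq table held it in its 250-base window, on either strand, among 32851 promoters. Myh1 and Myh4 each held the same MEF2 match upstream of that run, and 2.92% of all promoters held a MEF2 match on either strand. TATAAA, read on the gene's own strand, was found in the windows of Myh1 and Myh4, against 7.59% of all promoters, and its match in Myh1 lay in the bases not shown. In Myh2 none of these motifs was matched in the 250 bases. Of the 7 members with a promoter in the table (Myh1, Myh2, Myh4, Mylpf, Myl1, Tnnc2 and Atp2a1), 5 held an E-box, searched on both strands, against 66.2% of all promoters, a share near the background. A match is a description of letters and not a measured binding site.

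The same 3 genes are close copies, which bears on how reads were divided between them. Their coding sequences were 91.1% identical between Myh1 and Myh2, 90.2% between Myh1 and Myh4 and 88.2% between Myh2 and Myh4, against 77.4 to 77.9% between any of them and the slow heavy chain Myh7. The last 60 coding bases are shown as an example, from GENCODE M21 at chr11:67224410-67224469 (Myh1), chr11:67197329-67197388 (Myh2) and chr11:67260281-67260340 (Myh4) of GRCm38, with capitals at the 5 positions where the 3 genes differ.
Myh1: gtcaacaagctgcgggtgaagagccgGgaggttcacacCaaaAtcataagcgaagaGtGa
Myh2: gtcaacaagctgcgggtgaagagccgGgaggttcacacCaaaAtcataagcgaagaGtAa
Myh4: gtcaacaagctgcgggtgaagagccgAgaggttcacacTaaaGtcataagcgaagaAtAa
A stretch lying between such differences is the same in the 3 genes. Of all 150-base windows of the coding sequence, 2.61% in Myh1, 2.15% in Myh2 and 0.529% in Myh4 were found unchanged in another of the 6 sarcomeric heavy chains compared, which were Myh1, Myh2, Myh3, Myh4, Myh7 and Myh8. For windows of 50 bases the shares were 27.2%, 27.9% and 19.2%, and for Myh7 0.226%. The libraries were sequenced as read pairs, and these single windows take no account of the mate, which can place a read. Counts were of uniquely placed reads, so the levels of Myh1, Myh2 and Myh4 are uncertain by the reads that fell in shared stretches.

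The libraries held between 27058799 reads (GCN2 KO Cold C) and 30768064 reads (WT RT B) on listed genes, and levels are given as CPM, the reads of a gene scaled to a common library total. Libraries are called A, B and C in the order of the authors' codes, which are not tied to an individual mouse and start differently for WT RT than for both cold groups, so that cold and any difference in preparation cannot be told apart. Ucp1, the heat-producing uncoupling protein that defines brown adipose tissue, reached 9494 to 9693 CPM in the libraries labelled GCN2 KO Cold, 7970 to 8995 CPM in WT Cold and 3592 to 5273 CPM in WT RT. Eif2ak4, the gene of GCN2, did not have lower levels in the libraries labelled GCN2 KO Cold, where it reached 11.8 to 12.7 CPM, against 6.46 to 8.34 CPM in WT Cold and 11.1 to 13.0 CPM in WT RT. Reads were summed over the whole gene, so the exons behind them are not known. The names GCN2 KO Cold and GCN2 KO-labelled both give the label of the group. Library C of WT Cold and library C of GCN2 KO Cold stood apart in sex-chromosome transcripts, with 7.02 and 10.5 CPM of the Y-linked Ddx3y against 84.7 to 144 CPM in the other 7 libraries, and 131 and 127 CPM of Xist against 11.2 to 43.5 CPM. All 3 WT RT libraries were among these 7, so WT RT held no library of that kind and each cold group held 1. The study, however, describes these groups as holding both sexes. Library C was also the lowest of its group, in 9 of the members for WT Cold and in all 10 for GCN2 KO Cold. The members' medians and calls, and the calls of slow-fibre genes, regulators and Musk in WT Cold, are therefore also given without library C. Taking out the lowest library raises the members' values of its group by itself, so these values are a description. The part of the difference in sex-chromosome transcripts in the results was not tested.

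Summed over the 10 members, the fast-twitch genes took 1805 to 2230 CPM in WT RT, 1661 to 2811 CPM in WT Cold and 246 to 1022 CPM in the GCN2 KO-labelled libraries. They thus made up 0.180 to 0.223% of all reads in WT RT and 0.0246 to 0.102% in the GCN2 KO-labelled libraries. These are bulk samples, and the study describes brown adipocytes as expressing muscle-specific genes too. Fewer muscle fibres in a sample, less RNA of these genes per fibre and less of it from brown adipocytes cannot be told apart. The lowest count behind any member's value was 148 reads, for Myh2 in GCN2 KO Cold C.

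**Figure D1:**
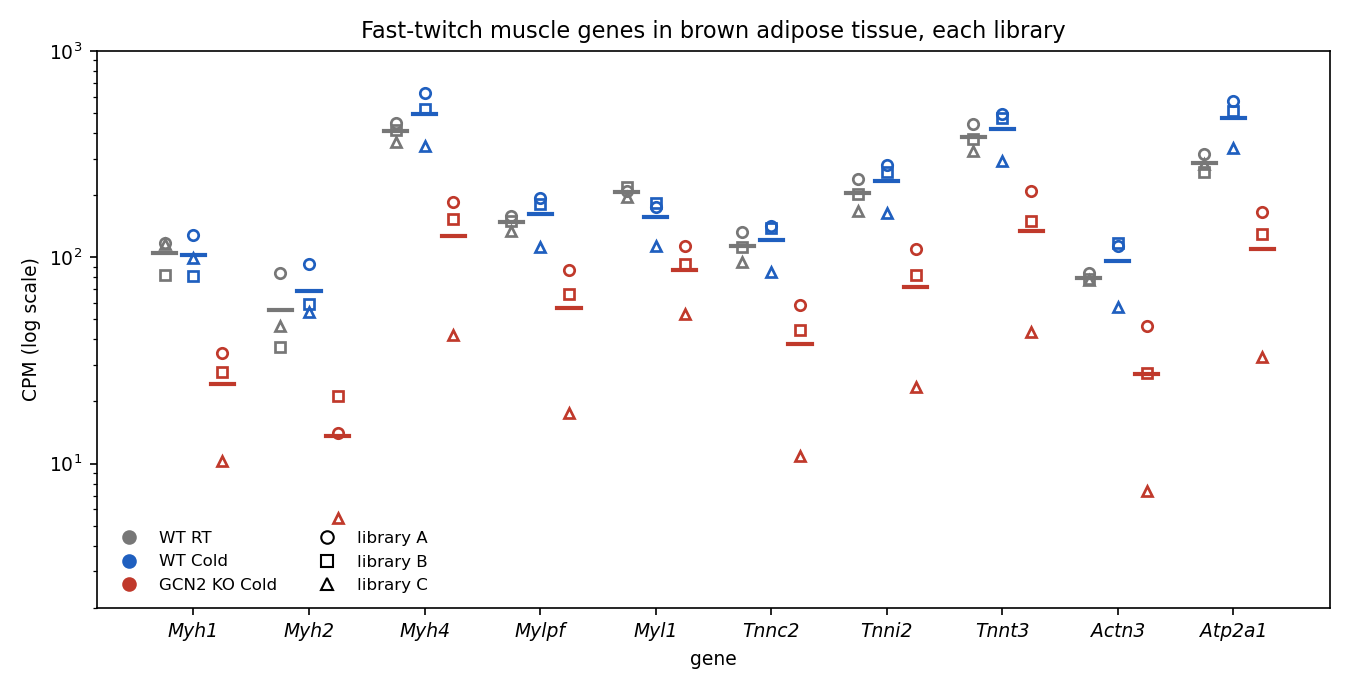
CPM of each of the 10 fast-twitch genes (log axis) in the 9 libraries, with a bar at the group mean. WT RT and WT Cold points lie in the same range for most genes, the 3 GCN2 KO-labelled points lie below every WT RT point for all 10, and library C (triangles) is the lowest of them for all 10.

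Myh4 encodes the heavy chain of IIb fibres, the fastest in the mouse. It had 446, 411 and 363 CPM in WT RT A, B and C, 622, 520.2 and 344 CPM in WT Cold, and 185, 153 and 42.0 CPM in the GCN2 KO-labelled libraries. The WT Cold libraries spread to both sides of WT RT, and those labelled GCN2 KO Cold lay below all others. Myh1, the heavy chain of IIx fibres, had 117, 81.9 and 116 CPM in WT RT, 128, 80.8 and 99.6 CPM in WT Cold, and 34.4, 27.9 and 10.3 CPM in the GCN2 KO-labelled libraries. Here WT RT and WT Cold covered nearly the same range. Myh2, the heavy chain of IIa fibres, had 84.2, 36.8 and 46.3 CPM in WT RT, 92.9, 59.1 and 54.5 CPM in WT Cold, and 14.1, 21.3 and 5.47 CPM in the GCN2 KO-labelled libraries. Myh2 varied most within WT RT, where its highest library was 2.29 times its lowest, and it was the only member whose highest GCN2 KO-labelled library was B.

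Mylpf (chr7:127208890-127214298) encodes the phosphorylatable regulatory light chain of fast myosin. It had 159, 149.9 and 134 CPM in WT RT, 193, 180.5 and 112 CPM in WT Cold, and 86.6, 65.9 and 17.5 CPM in the GCN2 KO-labelled libraries. WT Cold A and B lay above WT RT and WT Cold C below it. Myl1 (chr1:66924295-66945404), which encodes the fast essential light chains, had 209, 218 and 196 CPM in WT RT, 175, 183 and 114 CPM in WT Cold, and 114, 92.6 and 52.9 CPM in the GCN2 KO-labelled libraries. Myl1 was the only member that was lower in all 3 WT Cold libraries than in all 3 of WT RT, and the only one whose WT Cold and GCN2 KO Cold libraries overlapped, at 113.5 CPM in WT Cold C and 113.6 CPM in GCN2 KO Cold A.

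The troponin complex is the calcium switch of the thin filament. Its calcium-binding fast subunit Tnnc2 (chr2:164777161-164779967) had 132, 112 and 95.2 CPM in WT RT, 141, 139 and 85.2 CPM in WT Cold, and 58.6, 44.1 and 10.9 CPM in the GCN2 KO-labelled libraries. The inhibitory subunit Tnni2 (chr7:142441808-142444410) had 239.9, 203 and 168 CPM in WT RT, 279, 259.6 and 163 CPM in WT Cold, and 109, 82.1 and 23.4 CPM in the GCN2 KO-labelled libraries. The tropomyosin-binding subunit Tnnt3 (chr7:142498836-142516009), close to Tnni2, had 443, 375 and 328 CPM in WT RT, 494, 472 and 293 CPM in WT Cold, and 210.1, 150.3 and 43.2 CPM in the GCN2 KO-labelled libraries. All 3 subunits had the same order of libraries in the cold groups, with A and B of WT Cold highest and C of GCN2 KO Cold lowest.

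Actn3 (chr19:4861216-4877909), the alpha-actinin of fast fibres, crosslinks thin filaments at the Z-disc. It had 83.5, 78.1 and 77.3 CPM in WT RT, 113, 118 and 57.5 CPM in WT Cold, and 46.5, 27.6 and 7.39 CPM in the GCN2 KO-labelled libraries. WT RT was tight in this gene, its highest library being 1.08 times its lowest, while in the GCN2 KO-labelled libraries that ratio was 6.29, the largest of any member. Atp2a1 (chr7:126445858-126463108) encodes SERCA1, the calcium pump of fast fibres. It had 317, 259 and 281 CPM in WT RT, 572, 509 and 338 CPM in WT Cold, and 165, 129 and 33.0 CPM in the GCN2 KO-labelled libraries. Atp2a1 was the only member whose 3 WT Cold libraries all lay above the 3 of WT RT.

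Per kilobase of exon, which allows genes to be compared, the order in WT RT was Tnnt3 with 241 ± 36.4 CPM per kb (SD, n = 3), Tnnc2 with 142 ± 23.2, Mylpf with 139 ± 11.9, Tnni2 with 136 ± 24.0, Myl1 with 100.02 ± 5.35, Atp2a1 with 82.2 ± 8.40, Myh4 with 67.6 ± 6.92, Actn3 with 27.4 ± 1.16, Myh1 with 16.5 ± 3.14 and Myh2 with 7.81 ± 3.51. The levels of Tnnc2, Mylpf and Tnni2 did not differ beyond their spread. In the GCN2 KO-labelled libraries the means ran from 85.0 CPM per kb for Tnnt3 to 1.91 CPM per kb for Myh2, and Tnnt3 was highest, and Myh1 and Myh2 lowest, in each of the 3 groups.

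The question put to the WT Cold and WT RT mice was what 8 h at 4 °C changes in wild-type brown adipose tissue. Within each table, log2(normalized count + 1) was compared with limma, where a normalized count is the reads of a gene divided by the size factor of its library, and fold changes are on that scale. A gene was called at a Benjamini-Hochberg adjusted p under 0.05 over all genes and an absolute log2 fold change over 1. The p-values measure the spread between these libraries. The comparison shares the WT Cold libraries with the one behind the choice of the members, as described above, and its values should be read with that choice in mind.

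In cold-exposed wild type, 0 of the 10 members were called by limma, by DESeq2 or by edgeR's quasi-likelihood test, where 8.14% of all 16679 genes were called by limma, 8.53% by DESeq2 and 8.29% by edgeR. At an unadjusted p under 0.05 there was 1 member with limma, 2 with DESeq2 and 1 with edgeR, beside 40.9%, 38.5% and 40.5% of all genes. The member with an adjusted p under 0.05 from limma was Atp2a1, which had 473 ± 121 CPM (SD, n = 3) in WT Cold and 286 ± 29.2 CPM (SD, n = 3) in WT RT. This gave a log2 fold change of 0.78 (standard error 0.18, 95% interval 0.37 to 1.19), with an adjusted p of 0.0147 from limma and 8.06e-05 from DESeq2, and it was higher in 3 of 3 libraries but under the fold threshold. Myl1 had a log2 fold change of -0.35 (95% interval -0.71 to 0.02, adjusted p = 0.14 from limma). Groups that did not overlap were found for 1 member in each direction, and for 22.8% of all genes in each direction.

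The other 8 members had log2 fold changes from 0.05 for Myh1 to 0.44 for Myh2, with adjusted p-values from limma between 0.216 for Myh4 and 0.873 for Myh1. Their standard errors lay between 0.18 and 0.31. The median over the 10 members was 0.23, beside 0.0029 over all genes. Without WT Cold C, the median of the members was 0.45, 7 of the 10 had an unadjusted p under 0.05 from limma, beside 45.6% of all genes, and 0 were called, beside 11.1%. The same 7, which were Myh4, Mylpf, Tnnc2, Tnni2, Tnnt3, Actn3 and Atp2a1, had an adjusted p under 0.05 from limma in that fit, beside 34% of all genes, with log2 fold changes from 0.38 for Tnnc2 to 0.99 for Atp2a1. The median was 0.10 without WT Cold A and 0.14 without WT Cold B, so each WT Cold library moved it. WT Cold C was the lowest of its group in 9 of the members, so leaving it out raises them by itself.

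**Figure D2:**
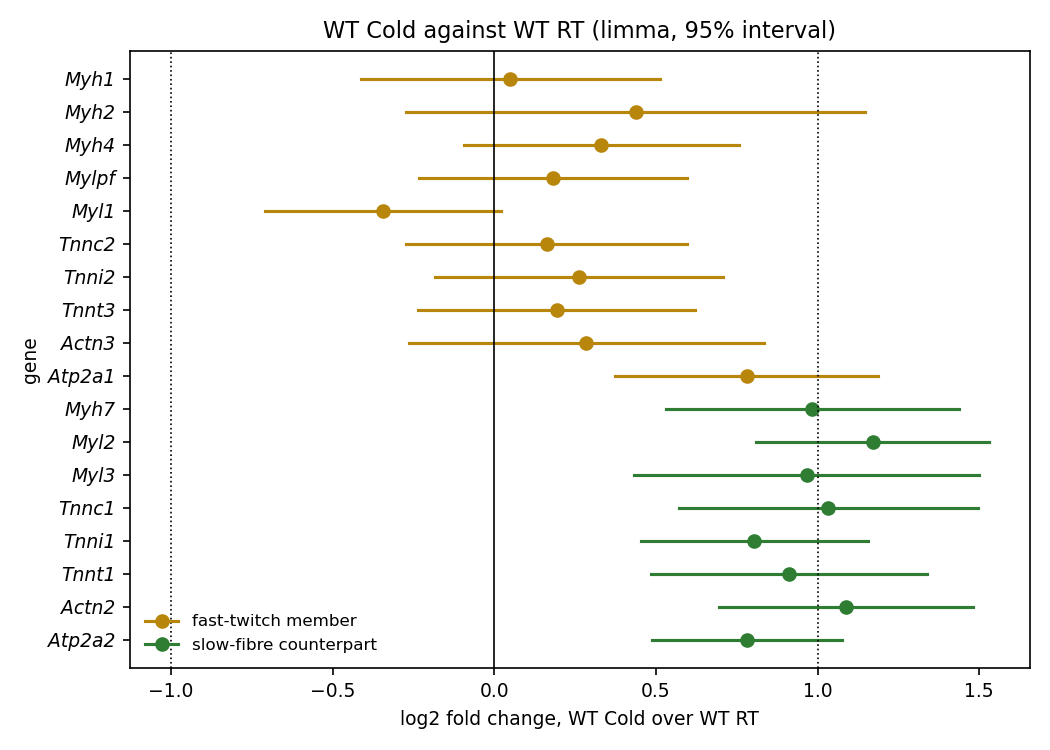
Log2 fold change of WT Cold over WT RT (limma, bars are 95% intervals) for the 10 fast-twitch genes and 8 slow-fibre counterparts, with dotted lines at the fold threshold of 1 on the log2 scale in either direction. Of the fast genes Atp2a1 (0.78) has an interval clear of 0, whereas all 8 slow counterparts do, from 0.78 for Atp2a2 to 1.17 for Myl2.

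The slow versions of the same proteins were read beside the members. Of 12 slow-fibre genes, 4 were called higher in WT Cold, beside 2.99% of all genes. These were Myoz2, an anchor of calcineurin at the Z-disc (log2 fold change 1.39, adjusted p = 0.00221 from limma), the regulatory light chain Myl2 (1.17, adjusted p = 0.00192 from limma), the alpha-actinin Actn2 (1.09, adjusted p = 0.00352 from limma) and troponin C of slow fibres, Tnnc1 (1.03, adjusted p = 0.00807 from limma). Without WT Cold C 7 were called higher, beside 4.18% of all genes, these 4 among them. All 12 had values above 0, with a median of 0.94, and 10 had WT Cold libraries that all lay above WT RT, beside 22.8% of all genes. The slow heavy chain Myh7 had 44.6, 59.0 and 60 CPM in WT RT and 134, 96.9 and 78.5 CPM in WT Cold, with a fitted log2 fold change of 0.98 (adjusted p = 0.00908 from limma). A list of 12 other fast-fibre genes, such as parvalbumin (Pvalb) and calsequestrin 1 (Casq1), had 0 called and a median of 0.05, with values from -0.11 for Ampd1 to 0.36 for Mylk2. For 12 genes used by both fibre types, such as Acta1 and Ckm, 0 were called and the median was 0.40.

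The fast and the slow version of a protein can be set against each other within a library, where depth cancels. The log2 ratio of the 3 fast heavy chains together to Myh7 was 3.86, 3.17 and 3.13 in WT RT A, B and C and 2.65, 2.77 and 2.67 in WT Cold. Mylpf against Myl2 stood at 2.28, 1.88 and 1.82 in WT RT and 1.03, 1.13 and 0.87 in WT Cold. Actn3 against Actn2 stood at 1.18, 1.23 and 1.18 in WT RT and 0.30, 0.75 and 0.13 in WT Cold. In these pairs every WT Cold library had less of the fast version, relative to the slow one, than every WT RT library. The same held for 7 of the 8 pairs, and the largest difference was in Myl1 against Myl3, with means of 3.22 in WT RT and 1.91 in WT Cold. The exception was the calcium pump, where Atp2a1 against Atp2a2 had means of -0.06 ± 0.21 (SD, n = 3) and -0.06 ± 0.16 (SD, n = 3), both pumps having the same log2 fold change of 0.78. The median over the 8 pairs was 2.94, 2.34 and 2.27 in WT RT and 1.51, 1.57 and 1.61 in WT Cold. No test was made of these ratios, since the pairs were chosen with results of these data known.

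**Figure D3:**
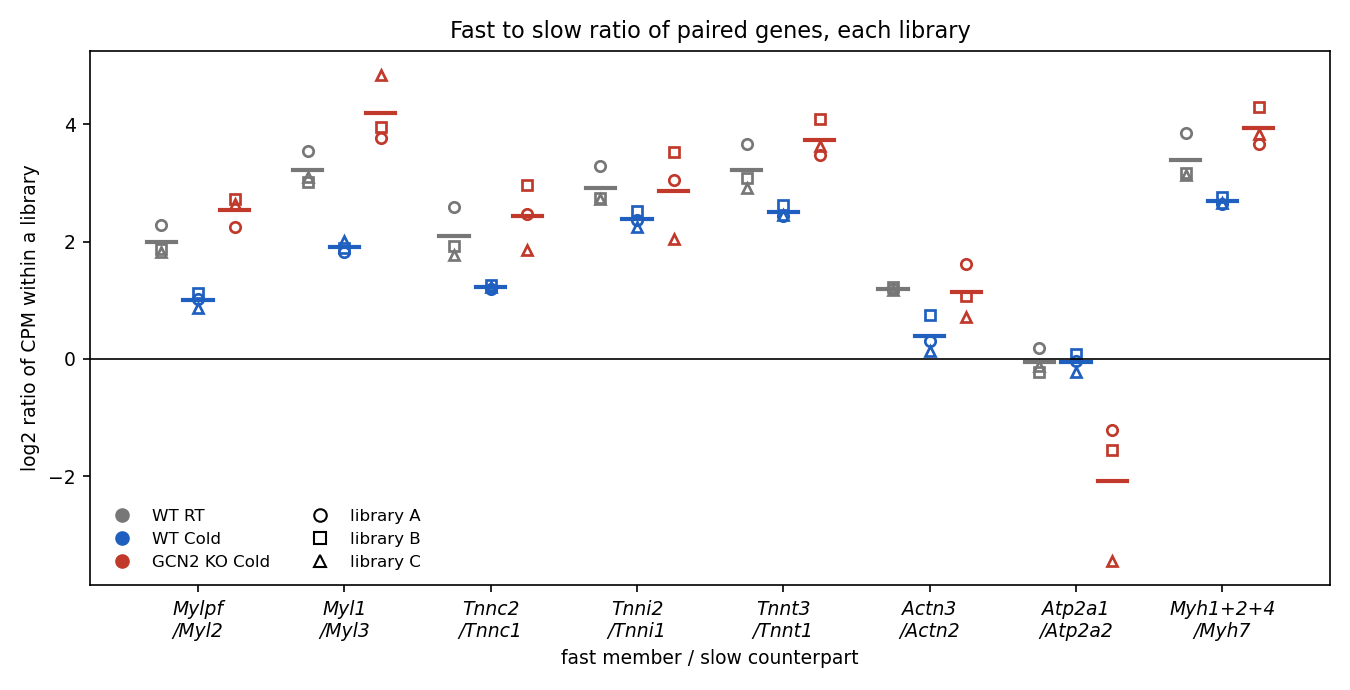
Log2 ratio of the CPM of each fast member to that of its slow counterpart in each of the 9 libraries, with a bar at the group mean. WT Cold points lie below all WT RT points in 7 of the 8 pairs, and the pump pair Atp2a1 to Atp2a2 is the one in which the GCN2 KO-labelled libraries lie below both other groups.

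The heavy chains were also taken as shares of their summed reads. Myh7 made up 6.44, 10.01 and 10.2% of the reads of Myh1, Myh2, Myh4 and Myh7 in WT RT, 13.8, 12.8 and 13.6% in WT Cold, and 7.32, 4.84 and 6.52% in the GCN2 KO-labelled libraries. All 3 WT Cold libraries were thus above the other 6. Myh4 took 65.4 ± 4.01% (SD, n = 3) in WT RT, 64.0 ± 4.53% in WT Cold and 71.1 ± 2.80% in the GCN2 KO-labelled libraries, and its groups overlapped. Myh1 ranged from 10.7 to 19.8% and Myh2 from 5.61 to 12.2% over the 9 libraries without separating the groups. The smallest sum, 1672 reads in GCN2 KO Cold C, gave a 95% Wilson interval of 65.7 to 70.2% for its Myh4 share of 68.0%, which covers counting error only.

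**Figure D4:**
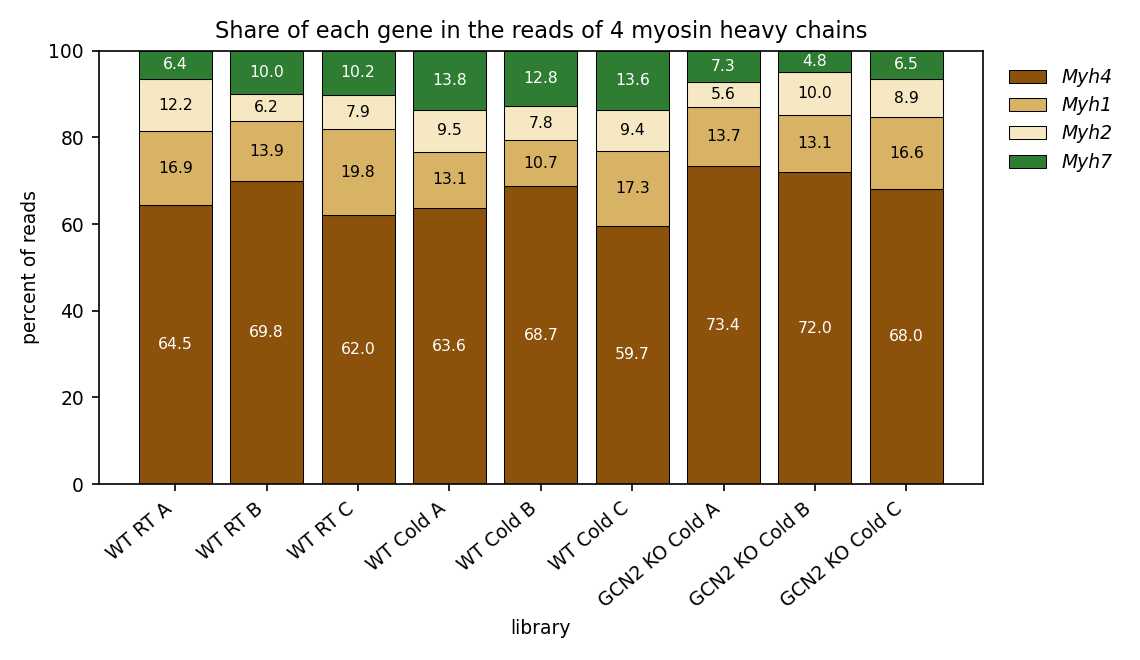
Share of each of 4 myosin heavy chain genes in their summed reads, as stacked bars from 0 to 100% for the 9 libraries. Myh4 is the largest share throughout, from 59.7 to 73.4%, and the share of the slow Myh7 is 12.8 to 13.8% in WT Cold against 4.84 to 10.2% in the other 6 libraries.

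Between the GCN2 KO-labelled libraries and WT RT, genotype and temperature both differ. The GCN2 KO Cold libraries are those used in choosing the members, so the values are a description. All 10 members were below all 3 WT RT libraries, where 25.5% of all genes were lower without overlap. The log2 fold changes were -2.07 for Myh1 (standard error 0.40), -1.94 for Myh2 (0.48), -1.73 for Myh4 (0.47), -1.70 for Actn3 (0.55), -1.68 for Tnnc2 (0.53), -1.57 for Tnnt3 (0.49), -1.56 for Tnni2 (0.48), -1.48 for Atp2a1 (0.51), -1.46 for Mylpf (0.50) and -1.13 for Myl1 (0.23). The heavy chains had the lowest values and Myl1 the one nearest 0. Of the 10, 8 were called lower by limma, beside 7.58% of all 16560 genes, and the exceptions were Mylpf and Atp2a1. DESeq2 and edgeR each called 4, beside 7.39% and 7.8% of all genes. The median of the members was -1.62, beside 0.0091 over all genes, and without GCN2 KO Cold C it was -0.92, with 3 called lower, beside 6.12% of all genes. Leaving out WT RT A, B or C left 2, 3 and 3 called, without GCN2 KO Cold A all 10 were called, and without B 7 were. Scaling by library totals in place of size factors was run on log2(CPM + 1), so the value added before the log changed too. This setting moved the median of all genes by -0.158 and the members' median to -1.80. With it, 499 higher and 1255 lower calls over all genes became 211 higher and 1022 lower.

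The other muscle lists were read in the same fit. Of the 12 other fast-fibre genes 10 were called lower, of the 12 slow-fibre genes 10 and of the 12 genes of both fibre types 10, with medians of -1.76, -1.82 and -1.72, beside 7.58% of all genes. Without GCN2 KO Cold C 8 of each list were called lower, beside 6.12%, with medians of -1.10, -1.25 and -1.10. The 3 genes with values above 0 were Fbp2, a muscle fructose bisphosphatase (0.43), Atp2a2, a calcium pump used in many cell types as well as in slow fibres (0.54), and Des, the intermediate filament of all muscle including smooth muscle (0.53).

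Between the GCN2 KO-labelled libraries and WT Cold, which differ in the labelled genotype at 4 °C, the log2 fold changes were -2.38 for Myh2, -2.26 for Atp2a1, -2.12 for Myh1, -2.07 for Myh4, -1.99 for Actn3, -1.84 for Tnnc2, -1.82 for Tnni2, -1.77 for Tnnt3, -1.64 for Mylpf and -0.79 for Myl1. This contrast was taken as the one behind the choice of the members, so its fold changes are a description, and its counts of calls are printed beside those over all genes with nothing read from them. All members but Myl1 were lower without overlap, beside 10.7% of all genes. By limma 0 of the 10 were called lower, beside 0.196% of all 16312 genes, by DESeq2 2 were, beside 1.12%, and by edgeR 0 were, beside 0.147%. The standard errors ran from 0.29 for Myl1 to 0.62 for Actn3. Without library C of both cold groups, an alternative added after the values were seen, the members' median moved from -1.92 to -1.47 and 9 of them were called lower, beside 0.68% of all genes. Without GCN2 KO Cold C alone the median was -1.20, and with any single library left out 0 members were called.

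In the ratio of the highest to the lowest library, the 3 GCN2 KO-labelled libraries spread more widely than those of the other groups. In CPM, the SD was larger in WT Cold for every member, such as Myh4 with 141 against 74.9 CPM. Relative to the WT RT mean, the median of the 10 members was 54.1% in library A (from 25.3% for Myh2 to 58.7% for Mylpf), 39.1% in library B (from 26.6% for Myh1 to 45.2% for Atp2a1) and 10.8% in library C (from 9.28% for Actn3 to 25.5% for Myl1). The corresponding medians were 134, 123 and 78.5% in WT Cold and 111, 98.8 and 90.0% in WT RT. Within a group, the highest library of a member was 2.15 times (Myl1) to 6.29 times (Actn3) its lowest in the GCN2 KO-labelled libraries, 1.59 to 2.05 times in WT Cold and 1.08 to 2.29 times in WT RT. Library A was the highest of its group for 9 members in WT RT, 8 in WT Cold and 9 in the GCN2 KO-labelled libraries.

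**Figure D5:**
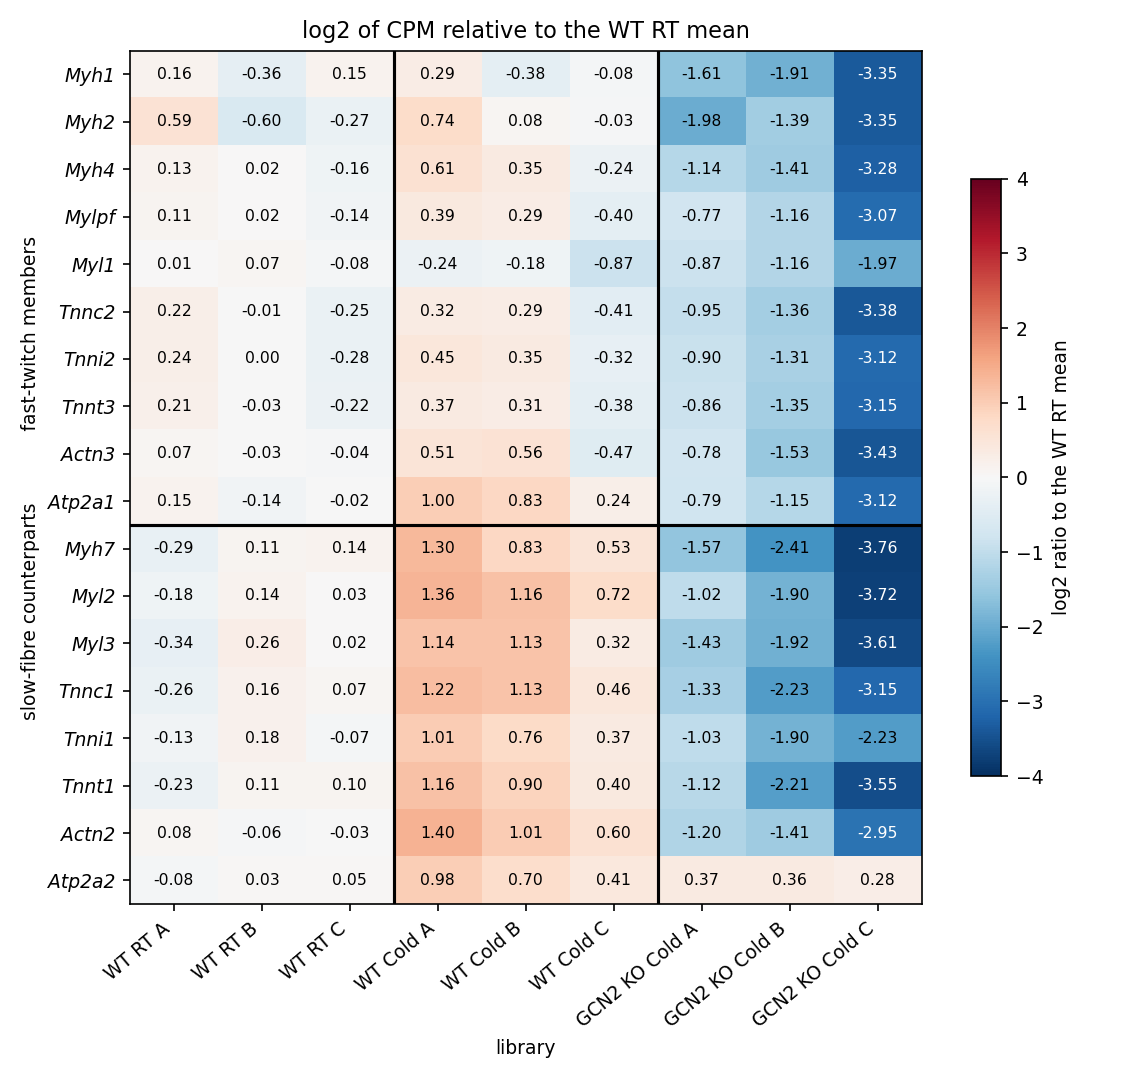
Log2 of the CPM of the 10 fast-twitch genes and 8 slow-fibre counterparts in each library, relative to the WT RT mean of the gene, with colour from blue (lower) to red (higher). The GCN2 KO-labelled columns are blue for all 10 fast genes and darkest in library C, the slow counterparts are red in all 3 WT Cold libraries, and Atp2a2 is the one row that stays above the WT RT mean in all 6 cold libraries.

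Markers of other cell types were read in the same libraries. The 12 muscle genes of both fibre types summed to 1561 to 2039 CPM in WT RT, 1574 to 2604 CPM in WT Cold and 460 to 1106 CPM in the GCN2 KO-labelled libraries. In GCN2 KO Cold C, Des supplied 255 of the 460 CPM and stood at 106% of its WT RT mean, and myoglobin (Mb) stood at 46.3%, where the members' median was 10.8%. The 5 smooth muscle genes, such as Myh11 and Acta2, summed to 233 to 820 CPM, 498 to 858 CPM and 498 to 1047 CPM in the same order of groups, and their median log2 fold change between the GCN2 KO-labelled libraries and WT Cold was 0.10. For 7 nonmuscle actomyosin genes it was -0.02, with values from -0.27 for Myh9 to 0.21 for Myl6, and the nonmuscle heavy chains Myh9 and Myh10 (-0.26) lay below WT Cold without overlap, with adjusted p-values from limma of 0.269 and 0.305. For 9 brown adipocyte genes it was 0.20, with sums of 24170 to 26325 CPM in WT Cold and 28528 to 28915 CPM in the GCN2 KO-labelled libraries. For 3 endothelial and 2 macrophage genes it was -0.33, all 5 values lying below 0, and their sums were 504 to 541 CPM in WT RT, 553 to 678 CPM in WT Cold and 430 to 536 CPM in the GCN2 KO-labelled libraries. The macrophage genes Cd68 and Adgre1 were called lower against WT RT both in WT Cold (-1.96 and -1.54) and in the GCN2 KO-labelled libraries (-2.78 and -2.20). Between the GCN2 KO-labelled libraries and WT Cold, the median of the 12 slow-fibre genes was -2.86 and 3 were called lower. The median of the 12 other fast-fibre genes was -1.83 and 0 were called. Over all genes, 0.196% were called lower. The part of muscle content in the members' levels was not tested.

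Relative to each other, most members kept their proportions. With every level taken relative to the geometric mean of the 10 members in its library, 8 members overlapped between WT RT and WT Cold. Atp2a1 stood at 0.76, 0.76 and 0.90 on the log2 scale in WT RT, 1.35, 1.38 and 1.33 in WT Cold, and 1.07, 1.02 and 0.80 in the GCN2 KO-labelled libraries. Its share among the fast genes was therefore higher in each WT Cold library than in the other 6. Myl1 stood at 0.16, 0.51 and 0.38 in WT RT, -0.35, -0.10 and -0.24 in WT Cold, and 0.53, 0.54 and 1.48 in the GCN2 KO-labelled libraries, so that its 3 groups did not overlap. Mylpf was also higher, relative to the other members, in all 3 GCN2 KO-labelled libraries than in those of WT Cold, with means of 0.03 and -0.20, and Myh4 was lower, with means of 1.22 and 1.41.

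In the GCN2 KO-labelled libraries the fast versions were low, and so were the slow ones except Atp2a2. The ratios overlapped with those of WT RT in most pairs. The median log2 ratio over the 8 pairs was 2.76, 3.24 and 2.34 in the GCN2 KO-labelled libraries, against 1.51 to 1.61 in WT Cold. Against WT Cold the fast version was relatively higher in 5 pairs, lower in 1 and overlapping in 2. Against WT RT, 6 pairs overlapped, Myl1 to Myl3 was higher (means of 4.19 and 3.22), and Atp2a1 to Atp2a2 was lower (means of -2.07 and -0.06). Atp2a2 itself had 383, 381 and 360.1 CPM in the GCN2 KO-labelled libraries, between its levels in WT RT (280.1 to 306 CPM) and in WT Cold (395 to 584 CPM).

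Across the 9 libraries, the 10 members correlated with each other at a Pearson r of 0.836 (Myh2 with Myl1) to 0.9995 (Tnnc2 with Tnnt3), with a median of 0.957 over 45 pairs of log2(CPM + 1). The 5 genes outside the members whose profiles were most like the mean profile of the members, among 8608 genes with a mean CPM of at least 10, were Acta1 (r = 0.998), Ryr1 (0.996), Ckm (0.995), Ttn (0.994) and Myoz1 (0.994). All 5 are genes of skeletal muscle fibres, for the alpha-actin, the calcium release channel, the muscle creatine kinase, titin and a Z-disc protein. These correlations rest on 9 libraries in 3 groups of unequal level and are given as a description.

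Genes known to set or follow the fibre type were read from lists of their own. Of 9 fibre-type regulators, 1 was called in WT Cold against WT RT, beside 8.14% of all genes, and their median log2 fold change was 0.03. The gene called was Eya1, a transcriptional coactivator of muscle development (log2 fold change 1.24, adjusted p = 0.0252 from limma), at a low level of 1.35 to 2.22 CPM in WT Cold and 0.59 to 1.11 CPM in WT RT. Sox6, a repressor of slow-fibre genes that is also expressed outside muscle, had 56.5, 44.8 and 47.8 CPM in WT RT and 25.1, 21.6 and 30.9 CPM in WT Cold, with a fitted log2 fold change of -0.86 (adjusted p = 0.00613 from limma) that stayed under the fold threshold. Its level in the GCN2 KO-labelled libraries was 19.4 to 23.8 CPM, so that both cold groups lay below WT RT. Nfix (-0.86, adjusted p = 0.00116 from limma) and Vgll2 (0.94, adjusted p = 0.0237 from limma) also had an adjusted p under the threshold without passing the fold threshold in WT Cold. Without WT Cold C, Eya1, Sox6 (-1.02) and Vgll2 (1.02) were called, beside 11.1% of all genes. In the GCN2 KO-labelled libraries against WT RT, 2 of the 9 regulators were called lower, beside 7.58% of all genes. Nfix was 1 of these (-1.03, adjusted p = 0.00123 from limma), and Vgll2 had the lowest value of the 9 (-1.79). Among the small peptides that restrain SERCA pumps, sarcolipin (Sln) had 3.61 to 4.84 CPM in WT Cold, 1.66 to 3.64 CPM in WT RT and 0.26 to 0.69 CPM in the GCN2 KO-labelled libraries. Its log2 fold change between the wild-type groups was 0.96 (adjusted p = 0.0589 from limma).

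Genes of immature muscle and of the neuromuscular junction were at low levels. The embryonic Myh3 and the perinatal Myh8, on either side of the 3 fast heavy chains, had at most 1.41 and 1.31 CPM in any library, and neither was called in WT Cold against WT RT. Myh8 was called lower in the GCN2 KO-labelled libraries than in WT RT (log2 fold change -2.33, adjusted p = 0.0225 from limma). Myod1, a factor of muscle precursors, had 0.10 to 0.59 CPM in the 2 wild-type groups. Musk, the receptor kinase of the neuromuscular junction, was called higher in WT Cold (1.32 to 2.52 CPM) than in WT RT (0.43 to 0.55 CPM), with a log2 fold change of 1.92 (adjusted p = 0.004 from limma). Of 3 such junction genes tested it was the 1 called, with WT Cold C and without it, beside 8.14% and 11.1% of all genes.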

How the data were processed

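RNA-seq libraries of brown adipose tissue from 9 mice, 3 per group, were analysed. According to the study's methods and the submitters' processing notes, reads were trimmed with Trimmomatic (0.36), aligned with STAR (2.5.2b) to GRCm39 and counted with featureCounts of Subread (1.5.2). The authors deposited, for each of 3 comparisons, a table whose signal values are reads after division by a size factor set in that table. Their columns of log2 fold changes and p-values were not used. The number of columns of other samples was 0. Columns name library codes, and a code was assigned to a group by the tables that hold it. The title of 1 sample names both genotypes, and its genotype label was used.

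All values were whole multiples of one step (within 0.01 reads), so whole reads were recovered and scaled to CPM. The main test was limma (3.58.1, R 4.3.3) with a mean-variance trend on log2(normalized count + 1), within a table. DESeq2 (1.42.0) and edgeR (4.0.16) on the recovered reads were alternatives, with other pseudocounts, a filter on low values, CPM scaling, all 3 groups in 1 fit, no trend, no fold threshold and each library left out. The scripts were tested on simulated data. Members and gene lists were chosen with earlier results of these data known. Named were the members, their slow counterparts, Eif2ak4, up to 4 examples of a list, and the 5 genes most correlated with the members. Myh8, Mb, Nfix, Vgll2, Adgre1, Pvalb, Casq1, Myh10, Myh11, Acta2, Ddx3y and Xist fall outside this rule and were named after their values were seen. Coordinates come from GENCODE M21 (GRCm38) by gene identifier, not from GRCm39. Promoters of Tnni2, Tnnt3 and Actn3 were not analysed here.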

Additional observations from a re-analysis of the deposited data

How the results depend on the processing

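No paired analysis was possible because the table columns carry library codes and no replicate number. CPM scaling and the fit of all 3 groups both used log2(CPM + 1), so these settings share their values. The value added before the log also differed from that of the main fit. The fit of all 3 groups took only the 16608 genes listed in all 9 libraries. With CPM scaling, and with all 3 groups in 1 fit, WT Cold against WT RT gave 869 and 871 called genes in place of 1357. Both settings turned the log2 fold change of Myh1 from 0.05 to -0.034, and leaving out single libraries moved it between -0.14 (without WT RT B) and 0.21 (without WT Cold B), with -0.11 without WT Cold A. Without a fold threshold 4624 genes and 1 member, Atp2a1, were called there. The log2 fold changes of the other 9 members kept their sign in that comparison under every setting run. For GCN2 KO Cold against WT RT the 8 members called became 4 with DESeq2, 4 with edgeR, 2 without a mean-variance trend and 2 to 10 with single libraries left out, and the 1754 genes became 5657 without a fold threshold. For GCN2 KO Cold against WT Cold the 42 genes called became 209 with DESeq2, 66 with CPM scaling, 156 with all 3 groups in 1 fit, 6 without the trend, 66 without a fold threshold and 3 to 22 with any 1 of the 6 libraries left out. The 0 members called there, a count from which nothing is read, became 2 with DESeq2, 4 with all 3 groups in 1 fit and 9, among 130 genes, without library C of both cold groups. All 10 members stayed below 0 in both comparisons of the GCN2 KO-labelled libraries under every setting run. Without the pair Atp2a1 to Atp2a2, the median log2 ratio of fast to slow genes moved to 2.92 in WT RT and 1.91 in WT Cold. Per kilobase, the Myh4 share in the GCN2 KO-labelled libraries was 74.0%. The cause of these changes was not tested.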
